A study of Mus musculus with 12 samples.

Results

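The 8 genes described here encode Krüppel-like factors, DNA-binding proteins that share a set of zinc fingers at their C-terminal end: Klf2, Klf3, Klf4, Klf6, Klf7, Klf9, Klf10 and Klf13. They were taken by name: every array probe whose gene name in the scanner files is one of these 8 was included. That gave 14 of the 41174 probes on the array and 8 of the 16743 genes tested. Klf2, Klf3, Klf6, Klf7, Klf9 and Klf13 each had 2 probes and Klf4 and Klf10 had 1, and all 14 passed the filter on dim probes.

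Gene expression was measured in peritoneal macrophages of female mice aged 10 weeks, drawn into the abdominal cavity by thioglycolate 96 h earlier. The 4 groups, with 3 one-colour arrays each, were C57BL/6 cells with apoA-I, C57BL/6 control cells, MyD88-null cells with apoA-I and MyD88-null control cells. ApoA-I, which forms most of the protein of HDL particles and takes up cholesterol from cells, was given at 10 µg/ml for 2 h. Cells of every group, controls included, had been loaded overnight with cholesterol at 10 µg/ml and then placed in medium with polymyxin B, which binds bacterial lipopolysaccharide, at 25 µg/ml. MyD88 is an adaptor protein that carries signals from interleukin-1 family receptors and nearly all Toll-like receptors. The MyD88-null mice carry no further label of strain background, and no vehicle is named for the controls. The design sets the response to apoA-I in cells with MyD88 beside that in cells without it.

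Krüppel-like factors bind GC-rich and CACCC-type elements, and members differ mainly in the N-terminal part that recruits activators or repressors. In macrophages Klf2 and Klf4 are known mostly as restraints on inflammatory activation, and Klf4 also as a driver of alternative activation. Klf6 is known there as a promoter of inflammatory gene expression, and several members are immediate responders to growth factors, hormones or stress.

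Values are log2 processed intensities minus the 75th percentile of the same array, so a value of 0 is the 75th percentile. Differences were tested with limma over all genes, and "passed" means a Benjamini-Hochberg adjusted p under 0.05. Samples with the same replicate number deviated together from their group means, so the result with the replicate number as a block is given wherever it changes a call. The labels do not say that replicates came from separate animals, and p-values speak only of the spread among these arrays. The titles and descriptions conflict for C57BL/6 control replicate 2, described as treated, and MyD88-null apoA-I replicate 2, described without apoA-I. Titles were followed. Calls of named genes in the fit without the block that these arrays decide are given with and without them. Calls made with the block are given only with these arrays included.

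The arrays differed in brightness: the 75th percentile ran from 199.5 to 1408 intensity units, and between 57.6% and 73.6% of probes were well above background. MyD88-null apoA-I replicate 1 had both the lowest 75th percentile and the highest share above background. Myd88 itself had a mean of 1.79 in MyD88-null controls, against 3.31 in C57BL/6 controls, and the groups did not overlap (difference -1.52, limma adjusted p 0.216, and 0.00395 with the replicate block). All 7 macrophage markers were above background on every array. The mast cell markers, of which 6 of 6 were above background, summed to 5.81 to 6.46 times the 75th percentile in C57BL/6 cells with apoA-I, against 4.38 to 5.59 in C57BL/6 controls. They summed to 2.66 to 4.1 in MyD88-null cells with apoA-I and 2.51 to 4.21 in MyD88-null controls, below the C57BL/6 arrays of the same treatment without overlap. Of the neutrophil markers, 6 of 7 were on the array and 2 to 6 above background. They summed to 0.913 to 1.33 in MyD88-null cells with apoA-I, against 0.662 to 0.894 in MyD88-null controls. In C57BL/6 cells they overlapped, at 1.03 to 1.28 with apoA-I and 0.833 to 1.06 in controls. NK cell markers, with 1 to 3 of 4 above background, summed to 0.144 to 0.682 in MyD88-null cells with apoA-I and 0.0938 to 0.143 in MyD88-null controls. In C57BL/6 cells the NK cell sums overlapped. Mesothelial and fibroblast markers, with 8 of 8 above background, summed to 48 to 205 over the 4 groups, whose ranges overlapped. B cell markers summed to 7.09 to 13.5 and endothelial markers to 10.8 to 17.8, next to 556 to 1280 for macrophage markers. The part of these cells in the results below was not tested. In bulk RNA, fewer cells of a type and less RNA per cell cannot be told apart.

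The results turn on the probes of Klf7, Klf2 and Klf10, which are shown because the 2 probes of Klf7 moved together and those of Klf2 did not. The brighter Klf7 probe lies at chr1:64319432-64319491 and the dimmer at chr1:64274226-64274285, both on the minus strand in build mm7 as the array files give it. The Klf2 probes lie at chr8:70842757-70842816 (brighter) and chr8:70844133-70844192 (dimmer) on the plus strand, and the Klf10 probe at chr15:38405475-38405534 on the minus strand. Whether these positions are exonic, coding or untranslated was not analysed here. The brighter probes are printed whole (60 bases) and the others by their first 30 bases, 5′ to 3′, with no base singled out by capitals.
Klf7 brighter probe: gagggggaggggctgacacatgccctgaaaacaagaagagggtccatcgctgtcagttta
Klf7 dimmer probe: atgttgaatctacttgtctgagggtaaagg
Klf2 brighter probe: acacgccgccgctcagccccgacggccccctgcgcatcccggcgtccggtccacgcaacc
Klf2 dimmer probe: tgtatataagactatgaccgattgtatttc
Klf10 probe: tggtcatgttcttagcaccacagtgtctgg

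No 2 probes of different members shared a run longer than 9 bases. The brighter Klf2 probe is 78.3% G and C and the dimmer one 43.3%, against a median of 40.0% over the 41174 probes. Its start lies 1376 bases before that of the dimmer Klf2 probe, on the same strand.

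Klf7, best known for its part in the development of neurons, was the one member that passed in the gene-level fit, and it rose in both genotypes. Its brighter probe read 3.21, 3.05 and 2.55 in C57BL/6 cells with apoA-I (replicates 1 to 3), against 1.29, 1.05 and 1.23 in C57BL/6 controls. It read 2.44, 2.65 and 1.94 in apoA-I-treated MyD88-null cells, against 0.43, 0.47 and 0.23 in MyD88-null controls. Every treated array lay above every control array of either genotype.

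Klf7 was 3.36-fold higher with apoA-I in C57BL/6 cells (log2 difference 1.75, SE 0.243, 95% interval 1.21 to 2.29, limma adjusted p 0.00692). It was 3.91-fold higher with apoA-I in MyD88-null cells (log2 difference 1.97, SE 0.243, 95% interval 1.43 to 2.51, limma adjusted p 0.00226). Among all genes, 0.812% rose by the same criterion in C57BL/6 cells and 1.13% in MyD88-null cells, and 1 of the 8 members did so in each. No member fell, where 0.0179% and 0.0119% of all genes did. Within replicate numbers 1, 2 and 3 the Klf7 differences were 1.92, 2.01 and 1.32 in C57BL/6 cells, and 2.01, 2.18 and 1.71 in MyD88-null cells. The arrays were scanned on 3 days. Within days the Klf7 difference was 1.96 (day 1, 2 arrays against 2) and 1.32 (day 3, 1 against 1) in C57BL/6 cells. In MyD88-null cells it was 2.22, 1.97 and 1.71 (days 1 to 3), each 1 array against 1. Day 3 held only arrays of replicate 3, so its values repeat those above. For MyD88-null cells, day 1 set apoA-I replicate 2, of conflicting labels, against control replicate 1.

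The dimmer Klf7 probe gave the same picture. It read 2.65, 2.36 and 2.14 in C57BL/6 cells with apoA-I, against 0.67, 0.40 and 0.73 in C57BL/6 controls. It read 1.92, 2.04 and 1.74 in apoA-I-treated MyD88-null cells, against -0.17, 0.05 and 0.09 in MyD88-null controls. The groups again did not overlap, with differences of 1.78 (adjusted over probes, limma p 0.00224) and 1.91 (adjusted p 0.00089). Across the 12 arrays the Klf7 probes correlated at r = 0.987, a description that includes the shared treatment.

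The Klf7 calls depended on settings that left the differences positive. Scaling to the array median gave 1.68 (adjusted p 0.119) in C57BL/6 cells and 1.52 (adjusted p 0.209) in MyD88-null cells. With that scaling the median difference of all genes was -0.066 and -0.398, against -0.002 and 0.052 with the 75th percentile. Without the 2 arrays with conflicting labels the C57BL/6 difference was 1.68 (adjusted p 0.069), and the MyD88-null one was 1.81 (adjusted p 0.0344). Leaving out C57BL/6 apoA-I replicate 2 (1.69, adjusted p 0.0533) or C57BL/6 control replicate 2 (1.68, adjusted p 0.0529) also ended the C57BL/6 call, as did a fit of the 2 C57BL/6 groups alone (1.75, adjusted p 0.0596). A fit of the 2 MyD88-null groups alone ended the MyD88-null call (1.97, adjusted p 0.0569). With treatment taken from the descriptions the differences were 1.20 (adjusted p 1) and 1.25 (adjusted p 0.879). Of all genes, 0 passed in either genotype with that labelling, against 139 in C57BL/6 and 191 in MyD88-null cells by title. Without both arrays of conflicting labels 59 and 90 passed. Before scaling, C57BL/6 replicate 3 had a Klf7 intensity of 3528 with apoA-I, against 3304 in its control, on arrays whose 75th percentiles were 603.7 and 1408.

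**Figure D1:**
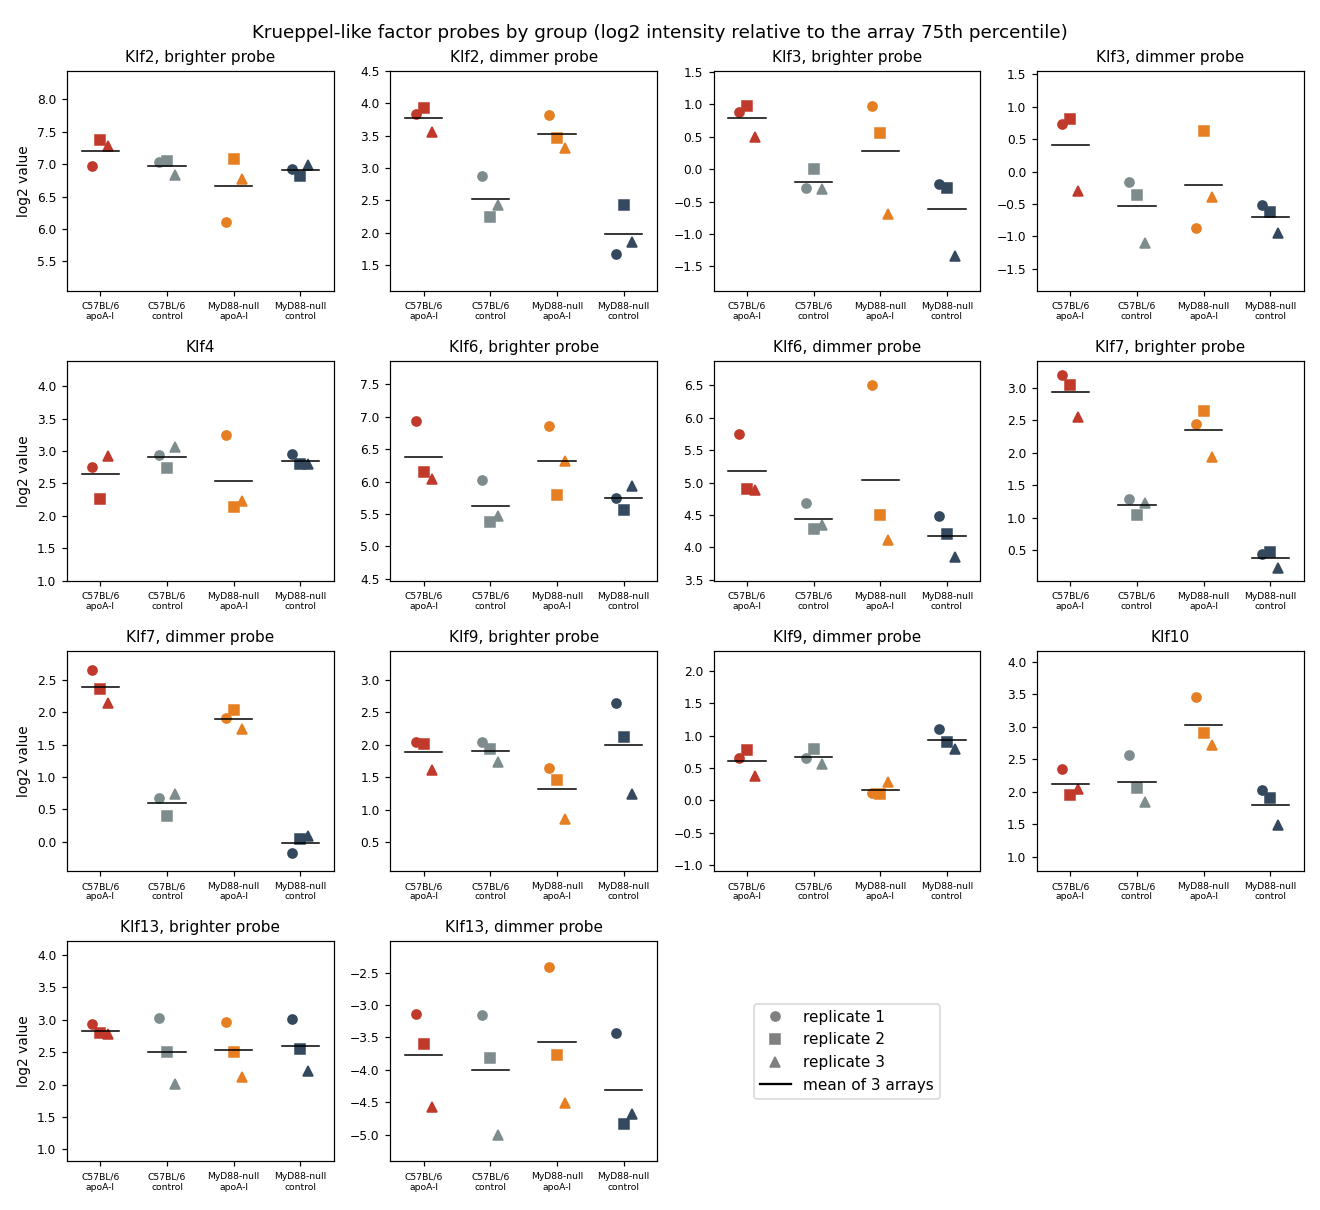
Log2 intensity relative to the array's 75th percentile for each of the 14 probes, with 1 point per array (marker shape gives the replicate number) and a bar for the mean of 3 arrays. Both Klf7 probes and the dimmer Klf2 probe are higher on every apoA-I array than on every control array of the same genotype.

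Klf7 also differed in level between the genotypes in control cells, though not past the threshold. It averaged 0.38 ± 0.129 in MyD88-null controls and 1.19 ± 0.126 in C57BL/6 controls (SD, n = 3 each). The difference was -0.81 (limma adjusted p 0.763, and 0.141 with the replicate block) and the 2 groups did not overlap, as for 3.48% of all genes in that direction. With apoA-I the difference was -0.59 (adjusted p 0.998), and the groups overlapped. The dimmer Klf7 probe differed by -0.61 in controls (adjusted p 1) and -0.49 with apoA-I (adjusted p 0.999), without overlap in either. Of all genes, 0.0956% passed between genotypes in control cells and 0.0657% with apoA-I, and none of the 8 members passed in either. The Klf7 responses of the genotypes differed by 0.22 (95% interval -0.55 to 0.98, limma adjusted p 1).

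The promoter of Klf7 is shown because both its probes moved, beside that of Klf2. These are the 250 bases before the RefSeq start in GRCm38.p6, chr1:64121390-64121639 on the minus strand for Klf7 and chr8:72318812-72319061 on the plus strand for Klf2. Capitals mark matches on either strand to CCACCC (the CACCC box, GGGTGG on the other strand), to TGACG (the core of the cAMP response element) and to the MEF2 consensus.
Klf7 promoter: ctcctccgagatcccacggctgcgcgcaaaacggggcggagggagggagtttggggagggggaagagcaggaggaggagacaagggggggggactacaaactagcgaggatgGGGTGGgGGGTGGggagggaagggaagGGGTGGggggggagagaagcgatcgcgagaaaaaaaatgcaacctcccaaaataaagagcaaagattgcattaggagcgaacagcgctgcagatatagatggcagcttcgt
Klf2 promoter: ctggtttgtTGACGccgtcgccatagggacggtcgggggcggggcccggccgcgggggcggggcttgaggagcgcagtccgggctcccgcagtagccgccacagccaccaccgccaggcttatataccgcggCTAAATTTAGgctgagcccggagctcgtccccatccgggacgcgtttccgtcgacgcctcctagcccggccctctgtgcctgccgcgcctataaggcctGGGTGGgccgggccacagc

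The RefSeq table held a promoter for 7 of the 8 members, all but Klf10. The Klf7 window held 3 CACCC boxes, which begin 138, 131 and 111 bases before the start and are read on the opposite strand. The CACCC box was in 4 of the 7 windows (Klf2, Klf3, Klf7 and Klf13) and in 28.1% of 32851 mouse promoter windows of this length. The core of the cAMP response element was in 4 of 7 (Klf2, Klf4, Klf9 and Klf13), against 17.8% of all windows. The MEF2 consensus was in 1 of 7, that of Klf2, against 2.92% of all windows. The NF-kappaB consensus and the TATAAA box were in none of the 7, against 7.25% and 12.4% of all windows. The 7 windows were 59.2% to 78.4% G and C, against a median of 52.4% over all windows. Matches to short motifs depend on base composition, and the shares over all windows were not matched for it.

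Klf2, a factor that keeps endothelial cells and monocytes quiescent, gave different answers at its 2 probes. The brighter probe, which stands for the gene in the gene-level fit, read 6.98, 7.37 and 7.28 in C57BL/6 cells with apoA-I, against 7.03, 7.05 and 6.84 in C57BL/6 controls. It read 6.12, 7.08 and 6.78 in apoA-I-treated MyD88-null cells, against 6.92, 6.81 and 6.98 in MyD88-null controls. The groups overlapped in both genotypes, and the lowest value was that of MyD88-null apoA-I replicate 1. The differences were 0.24 (95% interval -0.32 to 0.79) and -0.25 (95% interval -0.80 to 0.31), with limma adjusted p of 1 and 0.818.

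The dimmer Klf2 probe was higher with apoA-I on every array. It read 3.83, 3.92 and 3.56 in C57BL/6 cells with apoA-I, against 2.87, 2.25 and 2.42 in C57BL/6 controls. It read 3.81, 3.46 and 3.31 in apoA-I-treated MyD88-null cells, against 1.68, 2.43 and 1.85 in MyD88-null controls. No treated array overlapped the controls of either genotype.

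At this probe the difference was 1.54 in MyD88-null cells (2.91-fold, SE 0.266, limma p adjusted over probes 0.0201), and 1.08% of all probes rose by the same criterion. It was 1.25 in C57BL/6 cells (2.39-fold, SE 0.266, adjusted p 0.0759, and 0.0298 with the replicate block), where 0.752% of probes rose without the block and 2.38% with it. Without both arrays of conflicting labels the C57BL/6 difference was 1.12 (adjusted p 0.446 without the block). The MyD88-null call was lost without these arrays (1.57, adjusted p 0.124). It was also lost without either of MyD88-null apoA-I replicates 1 (1.40, adjusted p 0.0738) and 2 (1.57, adjusted p 0.0756), and without either of MyD88-null control replicates 1 (1.39, adjusted p 0.106) and 3 (1.47, adjusted p 0.0794). Median scaling (1.09, adjusted p 0.594), no filter on dim probes (1.54, adjusted p 0.0701), treatment from the descriptions (1.21, adjusted p 0.809) and a fit of the MyD88-null groups alone (1.54, adjusted p 0.182) ended it too. Within scan days the difference at this probe was 1.78, 1.38 and 1.46 in MyD88-null cells (days 1 to 3), each 1 array against 1. In C57BL/6 cells it was 1.32 (day 1, 2 arrays against 2) and 1.13 (day 3, 1 against 1). Neither Klf2 probe was saturated or marked as an outlier on any array.

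The disagreement of the Klf2 probes was tested directly, after it had been seen, as the change with apoA-I in the dimmer minus the brighter probe on each array. That gap averaged -3.44 in C57BL/6 cells with apoA-I and -4.46 in C57BL/6 controls, while MyD88-null cells averaged -3.13 with apoA-I and -4.92 in controls. It moved by 1.40 on average over the genotypes, and upward in 6 of 6 pairs of the same replicate number. Over the 64 exchanges of treatment within those pairs the two-sided exact permutation p was 0.03125, and over the 400 assignments within genotypes, which ignore the pairing, it was 0.005. Each is the smallest p its design can give, neither is adjusted for the 6 members compared, and the same arrays had prompted the test, so it is no independent evidence. The other 5 members with 2 probes gave mean changes of -0.22 to 0.36, with exact p of 0.125 to 0.8438 within pairs and 0.33 to 0.905 within genotypes. Without the 2 arrays of conflicting labels the Klf2 change was 1.44 (exact permutation p 0.01). Across the 12 arrays the dimmer Klf2 probe correlated with the brighter Klf7 probe at r = 0.956 and with the brighter Klf2 probe at r = -0.008, with treatment shared by the points.

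**Figure D2:**
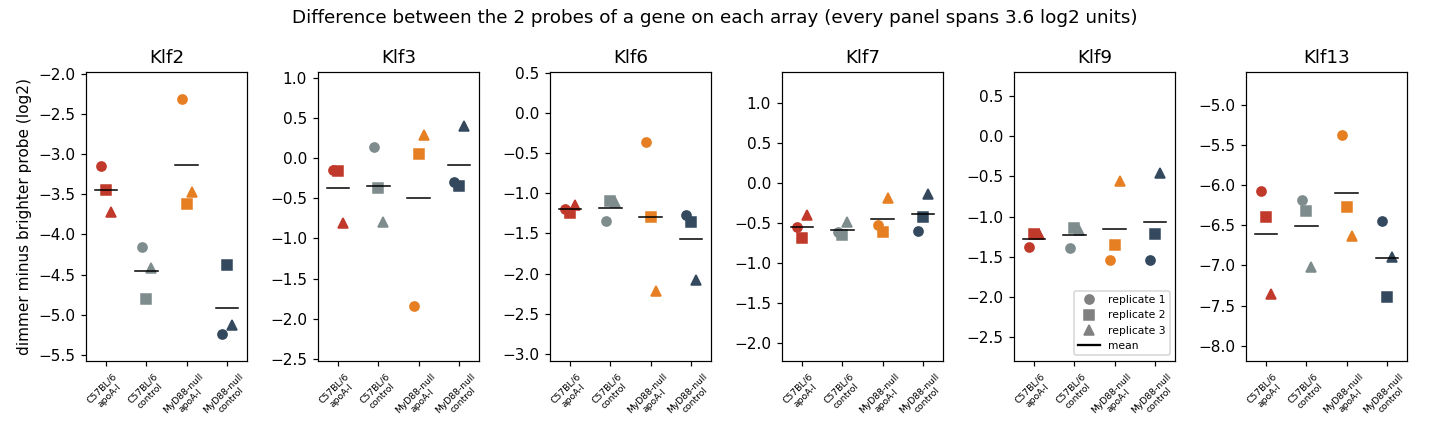
Dimmer minus brighter probe on each array (log2) for the 6 members with 2 probes, with 1 point per array and a bar for the group mean. For Klf2 the gap is smaller on every apoA-I array than on every control array of either genotype, while for Klf7 all 12 arrays lie between -0.69 and -0.14.

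Klf10, a repressor first known as an early gene of transforming growth factor beta (TGF-beta), was higher on every apoA-I array of MyD88-null cells, and its C57BL/6 groups overlapped. It read 3.46, 2.91 and 2.73 in apoA-I-treated MyD88-null cells, against 2.02, 1.90 and 1.48 in MyD88-null controls. It read 2.36, 1.95 and 2.04 in C57BL/6 cells with apoA-I, against 2.57, 2.06 and 1.84 in C57BL/6 controls. The MyD88-null groups did not overlap, and the C57BL/6 groups did.

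The Klf10 difference in MyD88-null cells was 1.23 (2.35-fold, SE 0.275, 95% interval 0.62 to 1.84, limma adjusted p 0.0806). With the replicate block it passed (adjusted p 0.00289), where 3.46% of all genes rose. Within replicate numbers 1, 2 and 3 the difference was 1.44, 1.01 and 1.25, and without both arrays of conflicting labels it was 1.29 (adjusted p 0.336 without the block). Within scan days 1 to 3 it was 0.89, 1.56 and 1.25, each 1 array against 1. In C57BL/6 cells it was -0.04 (95% interval -0.65 to 0.57, adjusted p 1).

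The Klf10 responses differed by 1.27 between the genotypes (95% interval 0.41 to 2.14, unadjusted limma p 0.00816). After adjustment over 16743 genes this did not pass (adjusted p 1, and 0.277 with the replicate block). By limma, 0% of all genes passed that comparison, and 196 genes had an unadjusted p under 0.05. With apoA-I, Klf10 was 0.92 higher in MyD88-null than in C57BL/6 cells (adjusted p 0.988, and 0.0696 with the replicate block), without overlap, as were 3.21% of all genes. In control cells the difference between the genotypes was -0.36 (adjusted p 1).

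**Figure D3:**
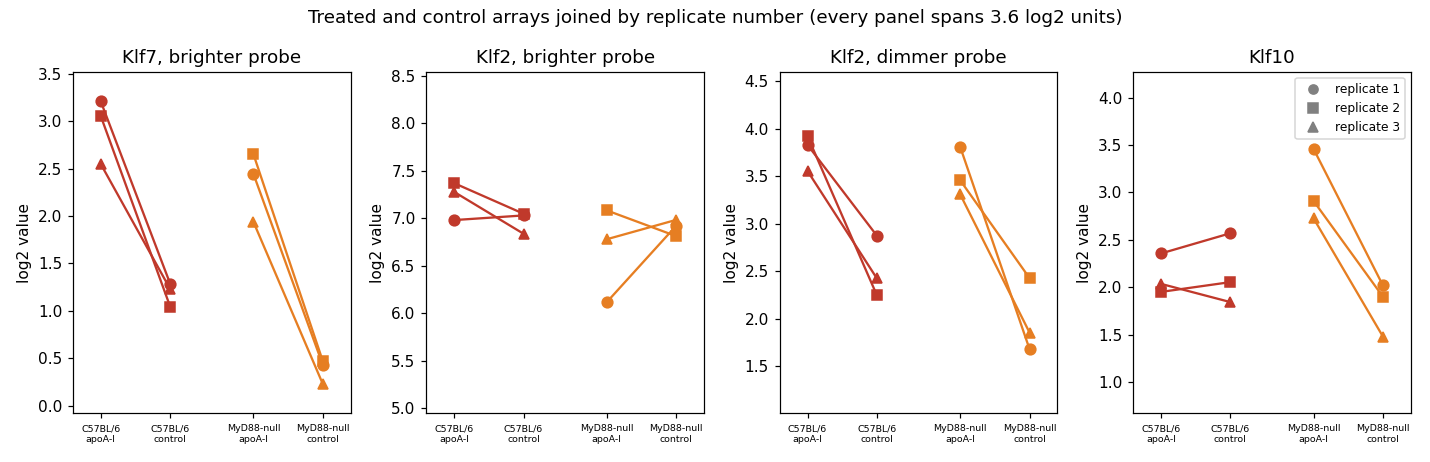
Log2 values of the brighter Klf7 probe, both Klf2 probes and the Klf10 probe, with the apoA-I and control arrays of the same replicate number joined by a line (C57BL/6 left, MyD88-null right). Klf7 and the dimmer Klf2 probe are higher with apoA-I in all 6 pairs, and Klf10 in all 3 MyD88-null pairs and 1 of 3 C57BL/6 pairs.

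Klf3 and Klf6 were higher on average with apoA-I in both genotypes, and neither passed. Klf3, a repressor that works through the corepressor CtBP, read 0.88, 0.97 and 0.50 in C57BL/6 cells with apoA-I, against -0.29, 0.01 and -0.31 in C57BL/6 controls, without overlap. It read 0.98, 0.56 and -0.69 in apoA-I-treated MyD88-null cells, against -0.23, -0.28 and -1.34 in MyD88-null controls, where the third treated array lay below the controls of replicates 1 and 2. The differences were 0.98 (limma adjusted p 0.646) and 0.90 (adjusted p 0.611), and at the dimmer Klf3 probe 0.95 and 0.48.

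Klf6 read 6.94, 6.15 and 6.04 in C57BL/6 cells with apoA-I, against 6.03, 5.38 and 5.46 in C57BL/6 controls, again with no overlap, if by a narrow margin. It read 6.86, 5.79 and 6.33 in apoA-I-treated MyD88-null cells, against 5.75, 5.57 and 5.93 in MyD88-null controls, which overlapped. The Klf6 differences were 0.75 (limma adjusted p 0.66) and 0.57 (adjusted p 0.712), and 0.74 and 0.86 at the dimmer probe. That probe reached 6.50 in MyD88-null apoA-I replicate 1, the dimmest array, against 4.50 and 4.11 in replicates 2 and 3.

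By non-overlap alone, 3 of the 8 members were higher with apoA-I in C57BL/6 cells (Klf3, Klf6 and Klf7), against 6.76% of all genes. In MyD88-null cells 2 of 8 were higher (Klf7 and Klf10), against 6.28% of all genes. At the probe that stands for the gene no member was lower without overlap, against 6.36% of all genes in C57BL/6 and 5.35% in MyD88-null cells. The median difference of the 8 members was 0.28 in C57BL/6 cells and 0.26 in MyD88-null cells, next to medians of -0.002 and 0.052 over all genes.

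Klf9, a glucocorticoid-induced factor, was lower with apoA-I in MyD88-null cells at its dimmer probe. That probe read 0.11, 0.10 and 0.28 in apoA-I-treated MyD88-null cells, against 1.11, 0.90 and 0.79 in MyD88-null controls. It read 0.66, 0.79 and 0.38 in C57BL/6 cells with apoA-I, against 0.66, 0.79 and 0.56 in C57BL/6 controls. The groups were apart in MyD88-null cells and intermixed in C57BL/6 cells.

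The dimmer Klf9 probe differed by -0.76 in MyD88-null cells (limma adjusted p 0.124, and 0.0345 with the replicate block, where 0.571% of all probes fell) and by -0.06 in C57BL/6 cells (adjusted p 1). Without both arrays of conflicting labels the MyD88-null difference was -0.73 (limma adjusted p 0.526 without the block). The responses differed by -0.70 (95% interval -1.30 to -0.11, limma adjusted p 1). The brighter Klf9 probe gave -0.68 (adjusted p 0.657, and 0.101 with the block) and -0.02 (adjusted p 1), with overlapping groups. Its values ran from 0.85 to 1.65 in MyD88-null cells with apoA-I, against 1.25 to 2.65 in MyD88-null controls. Between the genotypes, the dimmer Klf9 probe was 0.26 higher in MyD88-null than in C57BL/6 controls, and 0.44 lower with apoA-I. Neither difference passed, and the groups did not overlap in either. Of all genes, 6.84% were higher without overlap in controls and 2.41% lower with apoA-I.

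Klf4 read 2.76, 2.27 and 2.92 in C57BL/6 cells with apoA-I, against 2.94, 2.73 and 3.07 in C57BL/6 controls. It read 3.25, 2.13 and 2.23 in apoA-I-treated MyD88-null cells, against 2.95, 2.80 and 2.80 in MyD88-null controls. Treated and control arrays overlapped in both genotypes, and replicate 1 was the highest array in the MyD88-null treated group. The differences were -0.27 (95% interval -0.94 to 0.41) and -0.31 (95% interval -0.99 to 0.36).

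Klf13 can repress genes with the Sin3a complex and is known, apart from that, for its control of Ccl5 in T cells. Its values ran from 2.78 to 2.93 in C57BL/6 cells with apoA-I, against 2.00 to 3.02 in C57BL/6 controls. They ran from 2.12 to 2.96 in MyD88-null cells with apoA-I, against 2.21 to 3.02 in MyD88-null controls. The Klf13 differences were 0.32 (95% interval -0.38 to 1.03) and -0.06 (95% interval -0.77 to 0.64). The dimmer Klf13 probe was above background on 11 of 12 arrays and differed by 0.22 and 0.75, with intervals that spanned 0. Its signal was low, with group means of -4.32 to -3.57 and intensities of 20.6 to 48.35 units before scaling.

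**Figure D4:**
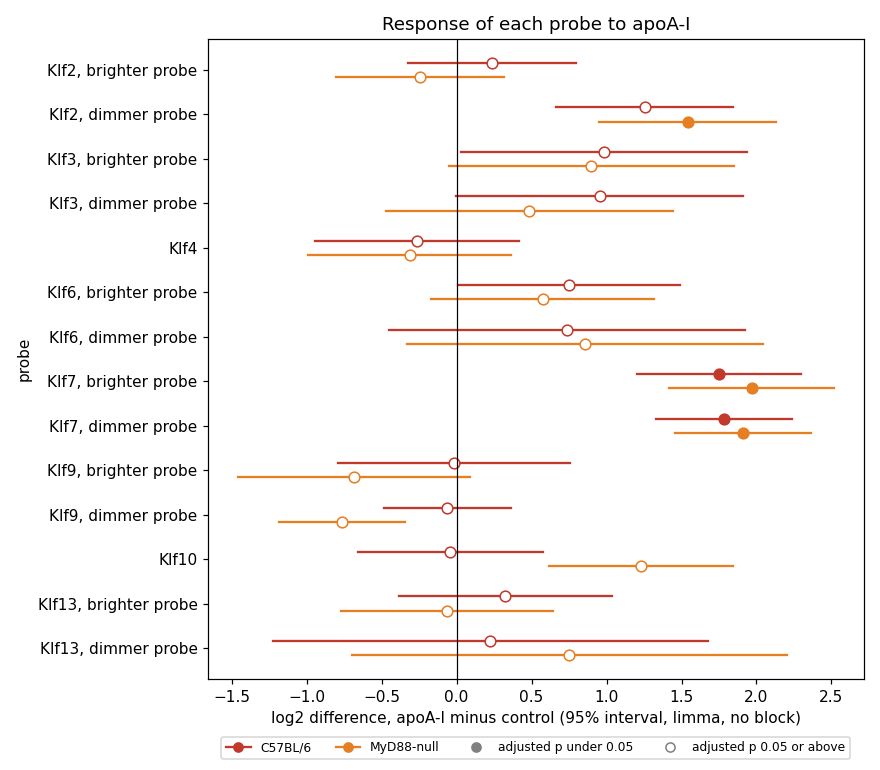
Log2 difference, apoA-I minus control, with its 95% interval from limma for each of the 14 probes in C57BL/6 (red) and MyD88-null cells (orange), where filled points passed at the probe level without the block. Both Klf7 probes are filled in both genotypes, and the dimmer Klf2 probe is filled in MyD88-null cells.

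Of the 9 other Klf genes on the array, 7 were measured (all but Klf1 and Klf14) and none passed in any comparison. Klf5 differed most, by 1.34 in C57BL/6 cells (limma adjusted p 0.448) and 1.14 in MyD88-null cells (adjusted p 0.546). Klf15 differed by 0.83 and 0.42, Klf12 by 0.01 and 0.88, and Klf17 by -0.11 and 0.69. Their probes were above background on 6, 11 and 10 of 12 arrays, and the SEs were 0.808, 0.764 and 1.07. Klf8 differed by 0.10 and 0.07, Klf11 by 0.01 and 0.34, and Klf16 by -0.13 and -0.27.

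The Sp genes encode the closest relatives of the family, with a like zinc-finger domain. Of 9 listed, 5 were measured, and none passed. Sp6 differed by 0.93 and 1.18 (SE 0.847) and Sp2 by 0.51 and 1.01 (SE 0.55) in C57BL/6 and MyD88-null cells. Sp2 read -1.54 in MyD88-null apoA-I replicate 1, the dimmest array, against -3.67 and -4.22 in replicates 2 and 3. Sp1 differed by -0.06 and 0.16, Sp3 by -0.14 and -0.45, and Sp4 by -0.36 and 0.25.

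Genes around the members in their pathways gave few calls. Of all genes, 2.37% rose and 1.04% fell with the replicate block in C57BL/6 cells, and 3.46% rose and 0.609% fell in MyD88-null cells. None of the 12 partner proteins passed, with median differences of -0.06 in C57BL/6 and -0.10 in MyD88-null cells. None of the 6 genes of the ERK5-MEF2 pathway, which drives Klf2 and Klf4 transcription, passed, with medians of -0.21 and -0.37. A glucocorticoid list held 6 measured genes, the receptor gene Nr3c1 and 5 genes that the hormone is known to induce, and none passed without the block. With the block 1 fell in each genotype, named here after its values were seen: Tsc22d3 in C57BL/6 cells (-1.49, adjusted p 0.035) and Per1 in MyD88-null cells (-0.96, adjusted p 0.0231). Without passing, each was also lower with apoA-I within every replicate number of the other genotype. Tsc22d3 read 1.81, 1.96 and 3.79 in apoA-I-treated MyD88-null cells, against 3.01, 3.71 and 4.47 in MyD88-null controls. Per1 read 0.11, -0.40 and -0.53 in C57BL/6 cells with apoA-I, against 0.72, 0.80 and -0.035 in C57BL/6 controls. The medians of the glucocorticoid list were -0.05 and 0.01.

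Among 11 genes reported as targets of Klf2 or Klf4, 1 rose in both genotypes: Cdkn1a, the cell cycle inhibitor p21. Cdkn1a read 4.11, 4.08 and 3.56 in C57BL/6 cells with apoA-I, against 2.21, 1.97 and 0.91 in C57BL/6 controls. It read 3.64, 4.43 and 3.63 in apoA-I-treated MyD88-null cells, against 1.66, 1.56 and 1.44 in MyD88-null controls. The groups did not overlap, with differences of 2.22 (limma adjusted p 0.0169) and 2.35 (adjusted p 0.00864). Neither Cdkn1a difference passed without the 2 arrays of conflicting labels (2.36, adjusted p 0.061, and 2.08, adjusted p 0.0811), with median scaling (2.16, adjusted p 0.0615, and 1.90, adjusted p 0.134) or with treatment from the descriptions (1.88, adjusted p 1, and 1.36, adjusted p 0.879). The C57BL/6 one also did not pass in a fit of its groups alone (adjusted p 0.129), or without C57BL/6 apoA-I replicate 1 (adjusted p 0.0843) or 2 (adjusted p 0.11) or C57BL/6 control replicate 2 (adjusted p 0.0569). Thbd, the anticoagulant receptor thrombomodulin and a gene that Klf2 is known to induce, differed the other way and passed with the block alone, as was seen afterwards (-1.85, adjusted p 0.0232, and -2.28, adjusted p 0.00768). The list's median was -0.05 in C57BL/6 and 0.17 in MyD88-null cells.

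Among 10 genes of the TGF-beta pathway, 1 rose without the block: Skil, a repressor of Smad signalling, in MyD88-null cells. Skil read 1.98, 2.10 and 1.80 in apoA-I-treated MyD88-null cells, against -0.10, -0.34 and 0.35 in MyD88-null controls. It read 2.53, 2.04 and 1.91 in C57BL/6 cells with apoA-I, against 1.14, 0.58 and 1.22 in C57BL/6 controls. The groups did not overlap in either genotype, and the differences were 1.99 (limma adjusted p 0.00405) and 1.18 (adjusted p 0.103, and 0.0385 with the block). In MyD88-null cells Skil passed without the arrays of conflicting labels (1.92, adjusted p 0.0337), and not with median scaling (1.54, adjusted p 0.363), treatment from the descriptions (1.39, adjusted p 0.879) or the MyD88-null groups alone (adjusted p 0.053). The pathway's median difference was 0.19 in C57BL/6 and -0.02 in MyD88-null cells.

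Over the 12 arrays, the genes with the highest Pearson correlation to each member were listed as a description, since treatment, genotype and array are shared by the points. For Klf7 these were Rhbdf2 (r = 0.989) and Socs3 (r = 0.988). For Klf3 they were Lad1 (r = 0.954) and Pxn (r = 0.939), for Klf4 Csnk1e (r = 0.922) and Zfp292 (r = 0.905), and for Klf9 Fxr2 (r = 0.92) and Ncan (r = 0.906). Klf13 was most like Rps6kb2 (r = 0.949) and Espn (r = 0.948), and Klf6 was most like Stk38l (r = 0.922). For the brighter Klf2 probe the named gene was Otud4 (r = 0.936), and for Klf10 both were unnamed transcripts.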

How the data were processed

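RNA from 12 macrophage samples was measured on one-colour Agilent arrays. The deposited scanner files hold spot intensities written by Feature Extraction. The submitters' processing notes give its version as 9.5, and the headers as 9.5.1.1 or 9.5.3.1. A processed intensity, corrected for background within its array per the file headers, stands beside the mean and local background intensity. A deposited table of log10 values followed the log10 processed intensity (r of 0.9926 to 0.9997 per array), and its columns had medians of 1.8225 to 1.8676. That scale was read from this match, its centring stays unknown, and it served as an alternative.

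Spots marked as outliers were left out, spots of a probe were averaged, and log2 intensities were set relative to each array's 75th percentile. A probe was kept if some group had it well above background on each of its 3 arrays (24351 probes), and the probe with the highest mean stood for each gene (16743). Names came from the files and RefSeq (GRCm38.p6), and 8437 of 41174 probes kept the name in the file. limma 3.58.1 in R 4.3.3 fitted 4 group means to all 12 arrays (8 residual and 2.16 prior degrees of freedom), and p-values were two-sided and adjusted by Benjamini-Hochberg. The members, gene lists and naming rule were chosen with earlier results of these data known. The rule names every probe of the 8 members, the other Klf and Sp genes, genes of other lists that pass in a comparison, and the 2 genes most like each member.

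Groups and replicate numbers come from the titles. The series design describes 3 experiments of 4 samples, but no label ties a replicate number to an experiment. Correlations of deviations from the group means between samples of a number were 0.369 to 0.723 (replicate 1), 0.296 to 0.619 (2) and 0.592 to 0.859 (3), so the block was used beside the unblocked fit. The number of arrays limits the precision. The fit was tested on simulated data. Promoters and their coordinates are from RefSeq (GRCm38.p6). Figures were drawn with matplotlib.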

Additional observations from a re-analysis of the deposited data

How the results depend on the processing

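Of the 8 members, 1 passed in each genotype's response to apoA-I and none in the other comparisons, where every alternative also gave 0. In C57BL/6 cells the count was 0 with median scaling, with treatment from the descriptions, without both conflicting samples and in a fit of the compared groups alone, and 2 with the slide as a random block. In MyD88-null cells it was 0 with median scaling, with treatment from the descriptions and with the compared groups alone. It was 2 with the replicate block, the slide as a random or (added after seeing the data) fixed block, the scan day as a block and every probe on its own. Leaving out 1 array gave 0 to 1 in C57BL/6 and 1 in MyD88-null cells. The causes were not tested. Among the members the replicate block changed no other call than those given beside the results. Klf10 in MyD88-null cells also passed with the scan day (adjusted p 0.0232) and the slide (1.36, adjusted p 0.00109 as a random block) as a block, and Klf3 in C57BL/6 cells with the slide as a random block (1.17, adjusted p 0.0376).

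These differences changed sign, and none had passed. Median scaling gave interactions of -0.17 and -0.26 at the brighter and dimmer Klf7 probe and -0.10 at the dimmer Klf2 probe. Quantile normalization gave -0.013 for Klf2 in C57BL/6 cells. The mean of a gene's probes gave 0.65 for Klf2 and 0.34 for Klf13 in MyD88-null cells. The authors' deposited table gave 0.023 for Klf13 there, and the slide as a random and fixed block 0.046 and 0.075. For Klf9 in C57BL/6 cells the same blocks gave 0.12 and 0.15. Treatment from the descriptions gave 0.006 for Klf9 and 0.044 for its dimmer probe in C57BL/6 cells, and 0.069 for Klf4 and -0.26 for the dimmer Klf3 probe in MyD88-null cells. Leaving out 1 array gave -0.46 to 0.026 for Klf2 and -0.28 to 0.15 for Klf13 in MyD88-null cells. In C57BL/6 cells it gave -0.10 to 0.12 for Klf9, -0.15 to 0.052 for its dimmer probe, -0.20 to 0.17 for Klf10 and -0.28 to 0.64 for the dimmer Klf13 probe.

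All 14 probes but the dimmer Klf13 probe were above background on 12 arrays. What limits the other differences was not tested.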
